A study of Homo sapiens with 24 samples.

Results

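The nuclear genes of the mitochondrial respiratory chain were followed in 2 human acute myeloid leukemia (AML) cell lines treated with 8-chloro-adenosine (8CA) or 8-amino-adenosine (8AA). Members were chosen by symbol: names beginning NDUFA, NDUFB, NDUFC, NDUFS, NDUFV, UQCR, COX4, COX5, COX6, COX7, COX8 or ATP5, and SDHA to SDHD, leaving out names with a hyphen and pseudogenes. This gave 95 of the 23354 genes in the count table, of which 81 encode subunits (37 of complex I, 4 of complex II, 8 of complex III, 17 of complex IV and 15 of complex V). The other 14 were caught by name and are not counted as subunits: 8 assembly factors of complex I (NDUFAF1 to NDUFAF8) and 6 related genes (UQCRHL, COX7A2L, NDUFA4L2, ATP5L2, ATP5S and ATP5SL). NDUFA4 is counted with complex IV, to which its protein belongs.

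MV4-11 and KG-1a are established lines grown in culture, each labelled wild type. Each line was left untreated or given 1 μM 8CA or 1 μM 8AA, and total RNA was taken after 8 h or 24 h. The 12 groups of line, treatment and time held 2 libraries each, A and B, and the library totals ran from 18633963 to 24520078 counts. Nothing in the labels says whether A and B were separate cultures, so p-values measure only the spread between these libraries. 8CA and 8AA are adenosine carrying a chlorine or an amino group at the same position of the base.

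Oxidative phosphorylation passes electrons from NADH (through complex I) and succinate (through complex II, the only complex shared with the TCA cycle) to ubiquinone, on through complex III and cytochrome c to complex IV, which reduces oxygen. Complexes I, III and IV pump protons, and complex V, the ATP synthase, uses their return to make ATP. Complexes I, III, IV and V mix subunits from the nuclear and the mitochondrial genome, while all subunits of complex II are nuclear. AML cells, and their stem cells in particular, are known for relying on this pathway. The count table held 0 mitochondrially encoded genes, so only the nuclear side of each complex was measured.

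The marker genes of KG-1a went partly against a myeloid label. CD33, a myeloid surface marker, lay between 102 and 135 CPM (counts scaled to a common library size by TMM factors) in MV4-11 and between 0.364 and 1.06 in KG-1a. LYZ lay between 2560 and 3670 CPM in MV4-11 and between 0.598 and 1.39 in KG-1a. The myeloid genes SPI1 and MPO lay at 6.11 to 8.07 and 0.097 to 2.25 CPM in KG-1a, against 210 to 273 and 7.69 to 12.6 in MV4-11. The leukocyte gene PTPRC was higher in KG-1a, at 709 to 820 CPM against 78.8 to 146. CD34 ran from 340 to 656 CPM in KG-1a and from 0 to 0.165 in MV4-11. The KG-1a libraries also carried the T cell gene CD3D at 181 to 273 CPM, whereas EPCAM and KRT19 were at 0 in every library of both lines. The 2 libraries of KG-1a with 8AA at 24 h differed from each other far more than other pairs, with a chi-square per degree of freedom of 12.3 against 1.43 to 5.2 in the other 11 groups. The main counts that rest on this pair are also given without each library, as are the named genes whose call against untreated cells changed without one.

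A gene was called lower or higher where the edgeR quasi-likelihood test gave an adjusted p (Benjamini-Hochberg over all genes tested in that line) under 0.05. Of the 95 members, 88 passed the filter on low counts in MV4-11 and 87 in KG-1a. The 7 that passed in neither line were COX4I2, COX6A2, COX6B2, COX7A1, COX7B2, COX8C and ATP5L2, and ATP5E passed in MV4-11 only.

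The complex IV genes show which isoforms these cells use. COX4I1, COX6A1, COX6B1, COX7A2, COX7B and COX8A, the isoforms found in most tissues, were all tested in both lines. Their alternatives were nearly absent: COX4I2 (known from lung), COX6A2 and COX7A1 (from heart and muscle) and COX7B2 had 0 counts in all 24 libraries, COX6B2 (from testis) reached at most 4 counts, and COX8C at most 2.

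Levels of different genes were compared per kb of exon length, over the 4 untreated libraries of each line. Complex IV had the highest median, 217 CPM per kb in MV4-11 and 182 in KG-1a, followed by complex V (116 and 97.2) and complex III (90.2 and 73.0). Complexes II (68.3 and 52.7) and I (59.3 and 52.0) came last. In MV4-11 the highest gene was ATP5B, the catalytic beta subunit of F1, at 652 ± 19.8 CPM per kb (SD, n = 4), against 216 ± 9.22 in KG-1a. ATP5A1, the alpha subunit that pairs with it, stood at 332 ± 6.54 and 278 ± 6. Within complex II, SDHC was the lowest in both lines (28.1 ± 1.13 and 25.2 ± 0.769), and SDHD ran higher in KG-1a (119 ± 8.76) than in MV4-11 (67.7 ± 7.38), with no overlap of the libraries. NDUFA11 of complex I (0.989 ± 0.219 and 0.853 ± 0.238 CPM per kb), NDUFB8 and ATP5E were so low that their changes are poorly measured: ATP5E held 0 to 16 counts in a library. Whether such low counts mean few transcripts or reads not assigned to these genes was not tested.

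After 24 h members were lower far more often than higher with either analog in either line, by amounts that were small per gene. In MV4-11 with 8CA, 62 of the 88 tested members were lower and 3 higher, with a median log2 fold change of -0.30 (22.7% of all 12800 genes tested were lower and 21.2% higher, median 0.00). In KG-1a with 8CA, 63 of 87 were lower and 4 higher, median -0.31 (24.0% and 23.4% of all 12711 genes, median 0.01). With 8AA, 43 members were lower and 1 higher in MV4-11, median -0.17 (15.3% and 13.9% of all genes), and 43 were lower and 4 higher in KG-1a, median -0.18 (26.6% and 25.4% of all genes).

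**Figure D1:**
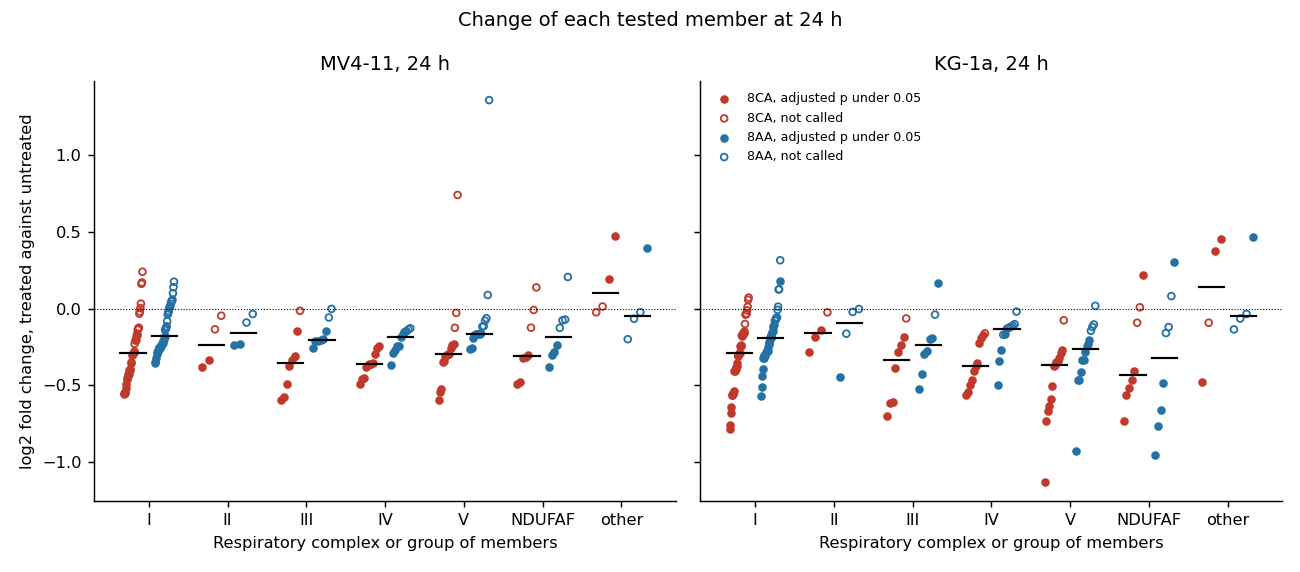
Log2 fold change of each tested member against untreated cells at 24 h (vertical axis), by complex (horizontal axis; NDUFAF are assembly factors, other are related genes), with 8CA in red and 8AA in blue. Filled points have an adjusted p under 0.05, black bars are medians, NDUFA4L2 is left out because its change in KG-1a is off this scale, and the open points far above 0 under complex V in MV4-11 are ATP5E, at 1 to 16 counts; most points of every complex lie below 0.

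These counts depended more on single libraries with 8AA than with 8CA. Leaving out a library also changes the test for every gene, and the shares of all genes without it are not given here. Whether members moved more than genes at large therefore cannot be told from the counts below. Leaving out any single library kept the number lower with 8CA at 51 to 56 in MV4-11 and 54 to 59 in KG-1a. With 8AA in MV4-11 it fell to 18 without 8AA library A, to 26 without untreated library A and to 27 without untreated library B. In KG-1a with 8AA, 63 members were lower without library A and 37 without library B, with medians of -0.29 and -0.11, and 33 and 34 were lower without untreated library A or B.

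All 5 complexes had subunits called lower in each comparison at 24 h. Of all genes, 22.7% (8CA) and 15.3% (8AA) were lower in MV4-11, and 24.0% and 26.6% in KG-1a. Complex II with 8AA in KG-1a, at 1 of 4, was near the share of all genes. With 8CA in MV4-11, 25 of 37 complex I subunits, 2 of 4 of complex II, 7 of 8 of complex III, 11 of 11 of complex IV and 12 of 15 of complex V were lower, with medians of -0.29, -0.24, -0.36, -0.37 and -0.30, and no subunit was higher. In KG-1a with 8CA the corresponding numbers were 24 of 37, 3 of 4, 7 of 8, 10 of 11 and 13 of 14, with medians of -0.29, -0.16, -0.34, -0.37 and -0.37. With 8AA in MV4-11 they were 16, 2, 6, 7 and 7 subunits, with medians between -0.21 (complex III) and -0.16 (complexes II and V). With 8AA in KG-1a they were 18, 1, 6, 4 and 10 subunits, with medians from -0.27 (complex V) to -0.09 (complex II). There they became 25, 2, 6, 11 and 13 without library A and 14, 2, 5, 3 and 8 without library B, with complex IV medians of -0.26 and -0.05. Differences between complexes were not tested.

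Of the 74 subunits tested in both lines, 59 had a fold change below 0 in all 4 comparisons at 24 h and 26 were called lower in all 4, or 79.7% and 35.1%. Over all 11485 genes tested in both lines the shares were 25.5% and 7.64%. Those 26 were 10 of 37 in complex I, 1 of 4 in complex II (SDHB), 5 of 8 in complex III, 3 of 11 in complex IV (COX5A, COX7A2 and NDUFA4) and 7 of 14 in complex V. The assembly factors NDUFAF2, NDUFAF4 and NDUFAF8 were also lower in all 4. Each line's 2 comparisons share the untreated libraries, so these counts are not independent of each other.

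Summed over the subunits, the same decrease appeared library by library. In MV4-11 at 24 h the untreated libraries held 9530 and 9670 CPM of subunit transcripts, the 8CA libraries 7690 and 7970, and the 8AA libraries 8390 and 8840. In KG-1a they held 7990 and 7970 untreated, 6400 and 6330 after 8CA, and 7320 and 6480 after 8AA. Relative to the untreated mean this is 80.1% and 83.0% (8CA) and 87.4% and 92.1% (8AA) in MV4-11, and 80.2% and 79.3% (8CA) and 91.7% and 81.2% (8AA) in KG-1a. No treated library overlapped the untreated ones, though with 2 against 2 libraries an exact two-sided permutation test of a single sum cannot go below p = 0.333. At the level of single genes, both treated libraries lay below both untreated ones for 61 of 75 subunits with 8CA in MV4-11, or 81.3% (37.0% of all genes), and for 65 of 74 in KG-1a, or 87.8% (38% of all genes). With 8AA this held for 70.7% of subunits in MV4-11 (33.1% of all genes) and 63.5% in KG-1a (35.3% of all genes). Bulk RNA gives transcripts as shares of a library, so fewer transcripts per cell in these genes and more in others cannot be told apart.

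**Figure D2:**
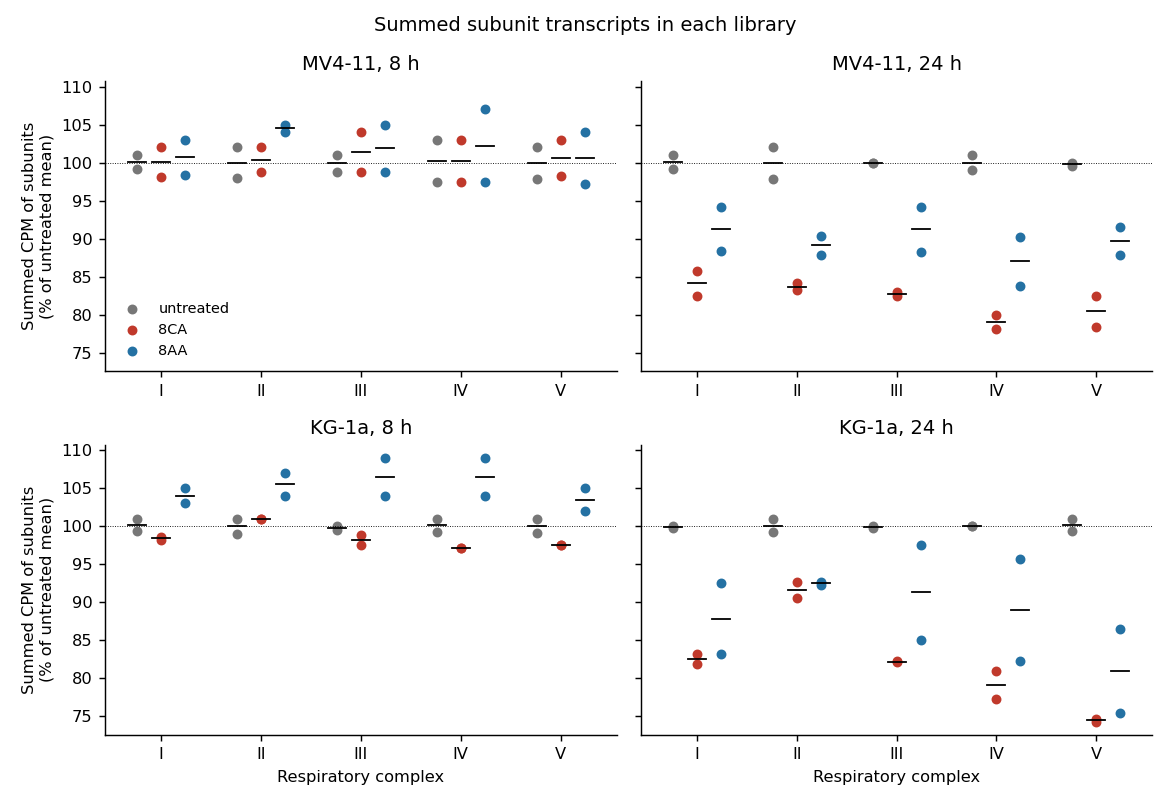
Summed CPM of the subunits of each complex in every library (points), as percent of the mean of the untreated libraries of the same line and time, with bars at the group means. At 8 h the treated libraries lie between 97.2% and 109%; at 24 h every treated library lies below the untreated ones, with complex V in KG-1a with 8CA lowest at 74.3% and 74.7%, and the 2 KG-1a 8AA libraries apart from each other.

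At 8 h few members were called. With 8CA, 0 members were lower and 1 was higher in MV4-11 (5.77% and 4.58% of all genes), and in KG-1a 0 were lower and 0 higher (0.181% and 0.7% of all genes). At an unadjusted edgeR p under 0.05, 2 were lower and 4 higher in MV4-11 and 3 and 0 in KG-1a, and the DESeq2 Wald test called 0 either way in both lines. For 40.5% of subunits in KG-1a the 8CA pair was below the untreated pair without overlap (24.8% of all genes), and for 4.05% it was above (22.2%). In MV4-11 the shares were 8% below (24.5%) and 12% above (27.1%). With 8AA, which had already changed many other genes, 2 members were lower and 1 higher in MV4-11 (15.6% and 13.6% of all genes). In MV4-11 at 8 h the same-lettered libraries deviated together (correlations of 0.241 to 0.329), and with the letter as a block 8CA had 3 members lower and 3 higher there, while 8AA had 8 and 7. KG-1a under 8AA had 4 lower and 10 higher (18.0% and 16.7% of all genes), and the summed subunits stood at 106% and 103% of the untreated mean. Both of these libraries lay above both untreated ones for 44.6% of subunits (35.1% of all genes) and below for 8.11% (33.4%). The 4 lower were NDUFV2, a core iron-sulfur subunit of complex I, and the assembly factors NDUFAF3, NDUFAF4 and NDUFAF8. The 10 higher were spread over the complexes and related genes (among them ATP5L, ATP5S, COX6C, NDUFA4 and UQCRC1), and fell to between 2 and 6 when any single library was left out.

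The change at 24 h was then tested against the change at 8 h. In MV4-11, 51 members had a lower response to 8CA at 24 h than at 8 h and 1 a higher one (9.83% and 6.48% of all genes), and 4 and 0 for 8AA (2.12% and 2.51% of all genes). In KG-1a the numbers were 42 and 2 for 8CA (12.7% and 11.2% of all genes) and 32 and 0 for 8AA (10.7% and 7.64% of all genes). The 4 in MV4-11 with 8AA were COX6C, NDUFS1, NDUFS5 and SDHA, and 0 were called without 5 of the 8 libraries, 1 without untreated 8 h library B, 8 without 8AA 8 h library A and 7 without 8AA 24 h library B, while with the replicate block 28 were. For 8CA the members called, either way, ran from 26 to 49 in MV4-11, lowest without the 24 h 8CA library A, and from 36 to 41 in KG-1a. For 8AA in KG-1a the 32 became 61 without 24 h library A and 19 without 8 h library A.

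The c ring of complex V, the rotor that turns as protons pass, has 3 genes, among them those with the lowest mean change of the complex, ATP5G1 and ATP5G3. ATP5G1, ATP5G2 and ATP5G3 (now named ATP5MC1, ATP5MC2 and ATP5MC3) are known to encode the same mature protein behind different import sequences, yet their transcripts did not move together. ATP5G1 stood at 83.0 and 82.6 CPM in untreated KG-1a at 24 h, 38.4 and 37.1 with 8CA, and 47.2 and 39.4 after 8AA. All 4 treated libraries lay far below the untreated ones, with log2 fold changes of -1.13 ± 0.08 (SE, edgeR adjusted p = 2.38e-08) and -0.93 ± 0.08 (adjusted p = 9.4e-08), the largest decreases of any subunit in that line. In MV4-11 ATP5G1 went from 69.9 and 75 CPM to 47.5 and 52.0 with 8CA (-0.54, adjusted p = 5.94e-05), and stood at 62.7 and 66.2 with 8AA (-0.17, adjusted p = 0.122). ATP5G3 was lower in all 4 comparisons, at -0.60 (8CA) and -0.26 (8AA) in MV4-11, and at -0.73 and -0.47 for the same analogs in KG-1a. ATP5G2 was called in none of the 4: it held 210 and 218 CPM in untreated MV4-11, 201 and 219 with 8CA, and 226 and 230 after 8AA. In KG-1a ATP5G2 held 87.1 and 85.3 CPM untreated and 99.5 and 74.5 in the 2 8AA libraries, one above and one below, so that its fold change was 0.20 without library B (edgeR adjusted p = 0.0078) and -0.21 without library A (adjusted p = 0.00952).

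The stretch of 60 bases just before the annotated start is shown for ATP5G1, ATP5G2 and 4 other named subunits. ATP5G1, NDUFS6, NDUFA3 and UQCRQ had large decreases, and ATP5G2 was not called. COX5B had a smaller mean change (-0.193) and was called lower with only 1 analog in 1 line. The sequences are RefSeq promoters on GRCh38.p14, written 5′ to 3′ on the gene's strand, with capitals marking a match to GCATGCGC (the core of the NRF1 site) or CCGGAAG (the core that ETS factors such as GABPA bind) on either strand. They are, in order, from chr17:48892727-48892786, chr12:53676084-53676143, chr5:1801347-1801406, chr19:54102795-54102854, chr5:132866582-132866641 and chr2:97646002-97646061.
ATP5G1: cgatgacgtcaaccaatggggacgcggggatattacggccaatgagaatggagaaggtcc
ATP5G2: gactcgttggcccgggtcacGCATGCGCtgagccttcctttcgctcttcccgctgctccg
NDUFS6: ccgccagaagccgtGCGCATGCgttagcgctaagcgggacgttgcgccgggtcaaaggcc
NDUFA3: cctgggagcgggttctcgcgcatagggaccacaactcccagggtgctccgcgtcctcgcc
UQCRQ: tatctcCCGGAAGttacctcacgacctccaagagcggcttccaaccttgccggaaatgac
COX5B: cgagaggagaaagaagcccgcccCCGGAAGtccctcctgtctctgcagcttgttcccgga
A match appears in a gene that was called with neither analog (ATP5G2) and in 1 of the 2 complex I genes that fell most (NDUFS6), while ATP5G1 and NDUFA3 have none in these bases. UQCRQ, with a large decrease, and COX5B, with a smaller one, each have a match. COX7B and COX7A2, the complex IV genes with the lowest mean change (-0.393 and -0.362), have none in their own 60 bases and are not shown. The same holds for UQCR11, with a mean change of -0.432. It also holds for UQCRC2, COX4I1 and ATP5O, with smaller mean changes (-0.0683, -0.15 and -0.165). A match to letters is a description and not a site.

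Over the full promoter window of 250 bases before to 50 after the start, 76 members had a RefSeq entry, 66 of them subunits. For 69 of the 76, the 30 bases after the start were found in a GENCODE 29 transcript in the same orientation. The start used is less certain for the others. GCATGCGC was found, on either strand, in 19.7% of the subunit promoters, CCGGAAG in 28.8% and AAGATGGCG (the YY1 motif) in 12.1%. Over all 27305 promoters the shares were 3.27%, 10.7% and 1.85%, and over promoters of genes tested in either line 5.47%, 19% and 3.94%. Any of the 3 stood in 45.5% of subunit promoters against 25.9% of those of tested genes. Among the subunits themselves, the 30 with a match had a median of -0.30 with 8CA in MV4-11 and -0.29 in KG-1a, and those without had -0.35 (32 subunits) and -0.37 (31 subunits). With 8AA the medians were -0.16 and -0.17 with a match and -0.17 and -0.23 without.

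The other complex V gene with a small mean change was ATP5O. ATP5O, the oligomycin sensitivity protein that joins F1 to the peripheral stalk, was lower with 8CA in KG-1a (-0.37, edgeR adjusted p = 0.00783) and not called in the other 3 comparisons, with values of -0.13 and -0.06 in MV4-11 and -0.10 with 8AA in KG-1a.

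In complex I the lowest subunits were accessory proteins. NDUFS6, which carries a zinc site near the iron-sulfur chain, held 65.9 and 68.7 CPM in untreated KG-1a at 24 h, 39.0 and 40.6 with 8CA, and 49.9 and 44.2 after 8AA, with no overlap. The fold changes were -0.76 and -0.51, and -0.45 and -0.23 in MV4-11, all called. NDUFA3, a small membrane subunit, was lower in all 4 as well: -0.55 and -0.32 in MV4-11 and -0.68 and -0.44 in KG-1a. The MV4-11 call for 8AA was lost under 1 of 11 alternatives for NDUFS6 and 2 of 11 for NDUFA3. NDUFS5, an intermembrane space subunit, fell by 0.55 with 8CA and by 0.30 with 8AA in MV4-11, and by 0.79 with 8CA in KG-1a, where it read -0.08 with 8AA (edgeR adjusted p = 0.342), or -0.22 without library A (adjusted p = 0.00109) and 0.04 without library B.

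Other complex I subunits were not called throughout. NDUFC2, a membrane subunit, was called in none of the 4, with fold changes of 0.16, 0.10, 0.01 and 0.32. The last was called under 5 of 11 alternatives (edgeR adjusted p from 0.00202 to 0.0363), at 0.45 without library A and not at 0.17 without library B. NDUFC1, another membrane subunit, was lower in KG-1a (-0.56 with 8CA and -0.33 with 8AA) and read -0.03 and -0.13 in MV4-11, where it was not called.

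Complex II showed the smallest changes with 8CA in both lines by its median. SDHB, the iron-sulfur subunit, was its only member lower in all 4 comparisons, from 57.2 and 58.6 CPM in untreated KG-1a to 46.8 and 48.3 with 8CA and 46.5 and 38.1 with 8AA (-0.28 and -0.45), and at -0.34 and -0.24 in MV4-11. Its calls for 8CA in KG-1a and for 8AA in MV4-11 were each lost under 1 of 11 alternatives. SDHA, the flavoprotein that oxidises succinate, was lower in MV4-11 (-0.38 and -0.23) and with 8CA in KG-1a (-0.18, edgeR adjusted p = 0.0276, lost under 4 of 11 alternatives), and read -0.003 with 8AA in KG-1a (-0.13, called, without library A and 0.11 without library B). SDHC, a membrane anchor, was called lower only with 8CA in KG-1a (-0.14, edgeR adjusted p = 0.0456), and 9 of 11 alternatives did not call it. SDHD, the other anchor, was called in none of the 4 (-0.05, -0.09, -0.02 and -0.16). Its libraries within a group differed as widely as the groups, as with 141 and 180 CPM in the 2 KG-1a 8AA libraries, and without library B it was called there at -0.35.

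In complex III UQCRQ, UQCR11 and UQCR10 fell in all 4 comparisons. UQCRQ, which helps bind ubiquinone, held 32.3 and 33.2 CPM in untreated KG-1a, 20.2 and 20.1 with 8CA, and 24.5 and 20.7 after 8AA. The groups did not overlap, with fold changes of -0.70 and -0.53, and -0.60 and -0.26 in MV4-11, the last not called under 4 of 11 alternatives. UQCR11 fell by 0.61 and 0.42 in KG-1a and by 0.49 and 0.20 in MV4-11 with 8CA and 8AA, the last not called under 5 of 11 alternatives. UQCR10 fell by 0.62 and 0.58 with 8CA in KG-1a and MV4-11. With 8AA UQCR10 was called at -0.20 and -0.21, but 7 of 11 and 6 of 11 alternatives did not call it, and in KG-1a it read -0.38 without library A and -0.05 without library B. UQCRC2, a core subunit, was lower only with 8AA in KG-1a (-0.19, edgeR adjusted p = 0.00481, not called under 3 of 11 alternatives) and read -0.06 with 8CA there and -0.01 and -0.002 in MV4-11.

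UQCRB, a quinone-binding subunit of complex III, was the only subunit called in opposite directions by the analogs in one line and time. In KG-1a at 24 h it held 243 and 226 CPM untreated, 207 and 205 after 8CA, and 285 and 242 after 8AA. The 8CA libraries lay below and the 8AA libraries one above and one within the untreated range, with fold changes of -0.19 (edgeR adjusted p = 0.0232) and 0.17 (adjusted p = 0.0327). The 8AA call was lost without 8AA library A (0.04, adjusted p = 0.457) or untreated library B (0.12, adjusted p = 0.258), and the 8CA call under 4 of 11 alternatives. The direct difference between the analogs, 0.35 ± 0.06, was called under all 11 alternatives (adjusted p = 0.000308). In MV4-11 UQCRB was lower with 8CA (-0.15, edgeR adjusted p = 0.032, lost under 6 of 11 alternatives) and read -0.06 with 8AA.

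In complex IV the decrease with 8CA took in nearly every tested gene. COX7B and COX7A2, small membrane subunits, had the lowest mean change over the 4 comparisons. COX7B went from 87.1 and 93.4 CPM in untreated KG-1a to 65.1 and 58.8 with 8CA, and held 87.5 and 72.4 with 8AA. The fold changes were -0.54 (called) and -0.17 (adjusted p = 0.0686 by edgeR), and -0.49 and -0.37 in MV4-11 (both called). COX7A2 was lower in all 4 (-0.37 and -0.27 in MV4-11, -0.46 and -0.34 in KG-1a). COX4I1, the subunit through which ATP is known to inhibit the enzyme, was lower in MV4-11 (-0.25 and -0.17) and with 8CA in KG-1a (-0.17), and read -0.02 with 8AA in KG-1a. COX5B was lower only with 8CA in MV4-11 (-0.35). COX6A1, COX6B1 and COX8A were lower with 8CA in both lines (between -0.19 and -0.46), and with 8AA only COX8A in MV4-11 was called (-0.29). The 8CA calls were lost under 3 of 11 alternatives for COX4I1, COX6A1 and COX8A in KG-1a and under 2 for COX6B1 in MV4-11, and the 8AA call of COX8A under 2. With 8AA in KG-1a, leaving out library A called COX4I1, COX5B, COX6A1, COX6B1, COX7B and COX8A lower (-0.12, -0.23, -0.26, -0.24, -0.32 and -0.24), and leaving out library B called none of them.

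With the analogs set directly against each other at the same dose and time, most members called at 24 h were lower with 8CA. The KG-1a libraries with 8AA disagreed in this. Summed subunits stood at 7320 CPM in 8AA library A and at 6480 in library B, beside 6400 and 6330 with 8CA. In MV4-11, 3 members were lower and 26 higher with 8AA than with 8CA (9.48% and 11.7% of all genes), median difference 0.14. In KG-1a, 3 were lower and 30 higher (21.7% and 20.3% of all genes), median 0.11. At 8 h the numbers were 0 and 0 in MV4-11 (3.7% and 2.96% of all genes; 0 and 2 at an unadjusted edgeR p under 0.05, and 0 by DESeq2) and 3 and 15 in KG-1a (15.8% and 14.7% of all genes), where the 3 were NDUFAF3, NDUFAF4 and NDUFV2. None of the 26 members higher with 8AA than with 8CA in MV4-11 was called higher than in untreated cells. These were 4 comparisons of the analogs in all, with p-values adjusted over all genes of each line. With the replicate block 46 were called in MV4-11 at 24 h and 1 at 8 h. In MV4-11 the 29 calls became 5 without 8CA library A and 8 without 8AA library B, and in KG-1a the 33 became 55 without 8AA library B and 21 without 8CA library A. The 18 calls at 8 h in KG-1a became 4 to 9 without any one of the 4 libraries.

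**Figure D3:**
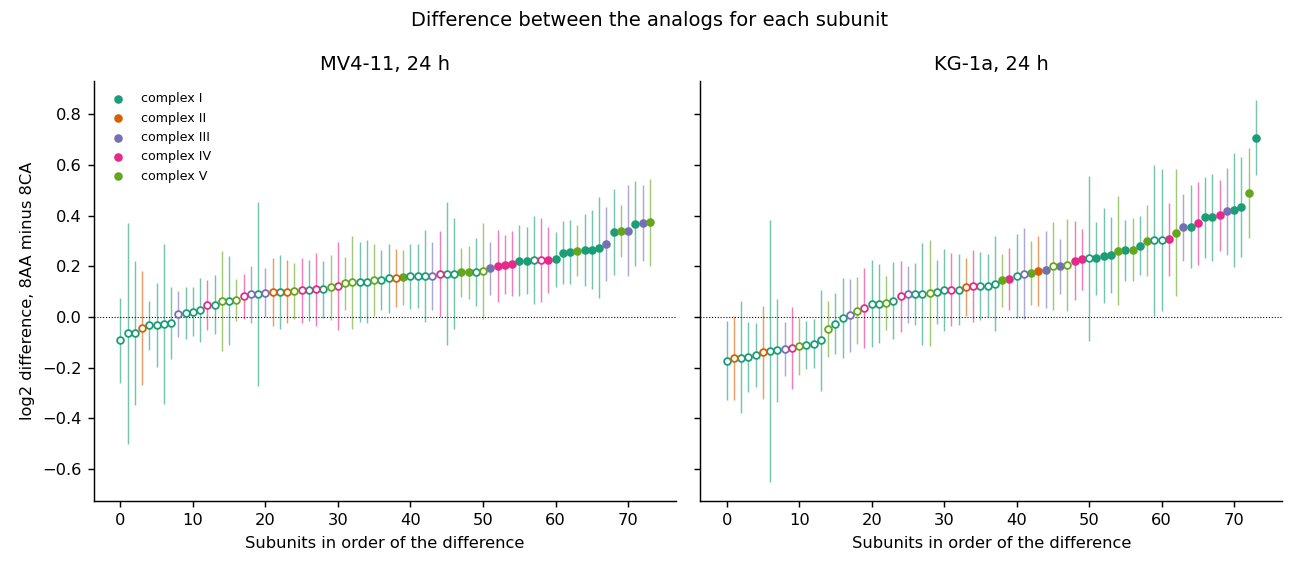
Log2 difference between 8AA and 8CA at 24 h (vertical axis) for each subunit tested in both lines, ordered by the difference (horizontal axis) and coloured by complex, with 95% confidence intervals from the edgeR fit as vertical lines. Filled points have an adjusted p under 0.05; every filled point lies above 0, and NDUFS5 in KG-1a is highest at 0.71.

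The largest difference of a subunit was that of NDUFS5 in KG-1a. It held 99.8 and 102 CPM untreated, 59.0 and 57.8 after 8CA and 104 and 86.5 after 8AA, so that only the 8CA libraries stood apart. The difference was 0.71 (95% confidence interval 0.56 to 0.86, edgeR adjusted p = 1.15e-06), against 0.25 (0.13 to 0.38) in MV4-11. UQCR10 differed by 0.42 (0.25 to 0.59) in KG-1a and 0.37 (0.22 to 0.52) in MV4-11, and ATP5G1 by 0.37 (0.20 to 0.55) in MV4-11. For ATP5G1 in KG-1a the difference of 0.20 (0.03 to 0.37) was not called, though 5 of 11 alternatives called it (edgeR adjusted p from 0.000689 to 0.0296). Several subunits gave no call between the analogs in either line. For SDHD the difference was -0.04 (-0.27 to 0.18) in MV4-11 and -0.14 (-0.32 to 0.04) in KG-1a, for ATP5G2 0.12 (-0.01 to 0.25) and 0.09 (-0.11 to 0.30), and for COX7A2 0.11 (-0.02 to 0.23) and 0.12 (-0.02 to 0.26). Without 8AA library B the KG-1a differences of SDHD, ATP5G2 and COX7A2 were called, at -0.32, 0.28 and 0.22, and without library A they were not, at 0.02, -0.13 and 0.01.

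The members lower with 8AA than with 8CA at 24 h were not subunits. COX7A2L and NDUFA4L2 were lower in both lines, joined by NDUFAF7 in MV4-11 and NDUFAF4 in KG-1a. COX7A2L encodes a protein known to join complexes III and IV into supercomplexes. It held 96.1 and 100 CPM in untreated MV4-11, 110 and 114 with 8CA, and 93.3 and 94.0 after 8AA. In KG-1a it held 100 and 101 untreated, 131 and 130 after 8CA, and 97.9 and 94.7 after 8AA. In both lines the 8CA libraries were the highest, with fold changes of 0.19 (edgeR adjusted p = 0.0046) and 0.38 (adjusted p = 7.3e-06), and 8AA read -0.07 in both, not called. The analogs differed by -0.26 (-0.36 to -0.16) and -0.44 (-0.54 to -0.35), and these calls held under all 11 alternatives.

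NDUFA4L2, a paralog of NDUFA4 known as a target of hypoxia-inducible factor, rose with 8CA in both lines from very different levels. In MV4-11 at 24 h it held 4.22 and 2.94 CPM untreated, 6.5 and 7.99 after 8CA, and 2.52 and 2.27 after 8AA. The 8CA libraries were the highest and the 8AA libraries the lowest, with fold changes of 1.02 ± 0.16 (edgeR adjusted p = 0.00013) and -0.57 ± 0.20 (adjusted p = 0.0444). The decrease with 8AA was not called under 6 of 11 alternatives (adjusted p up to 0.395), and without untreated library A it was -0.29. In KG-1a the gene was close to silent: 1 count in the 2 untreated libraries together, 3 with 8AA and 79 with 8CA (1.68 and 2.14 CPM). The ratio of 8CA to untreated counts was 72.6, with an exact 95% counting interval of 12.7 to 2910. At 8 h MV4-11 held 2.51 and 2.40 CPM untreated and 2.62 and 2.97 with 8CA, with no call, and KG-1a at most 4 counts in any pair of libraries.

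**Figure D4:**
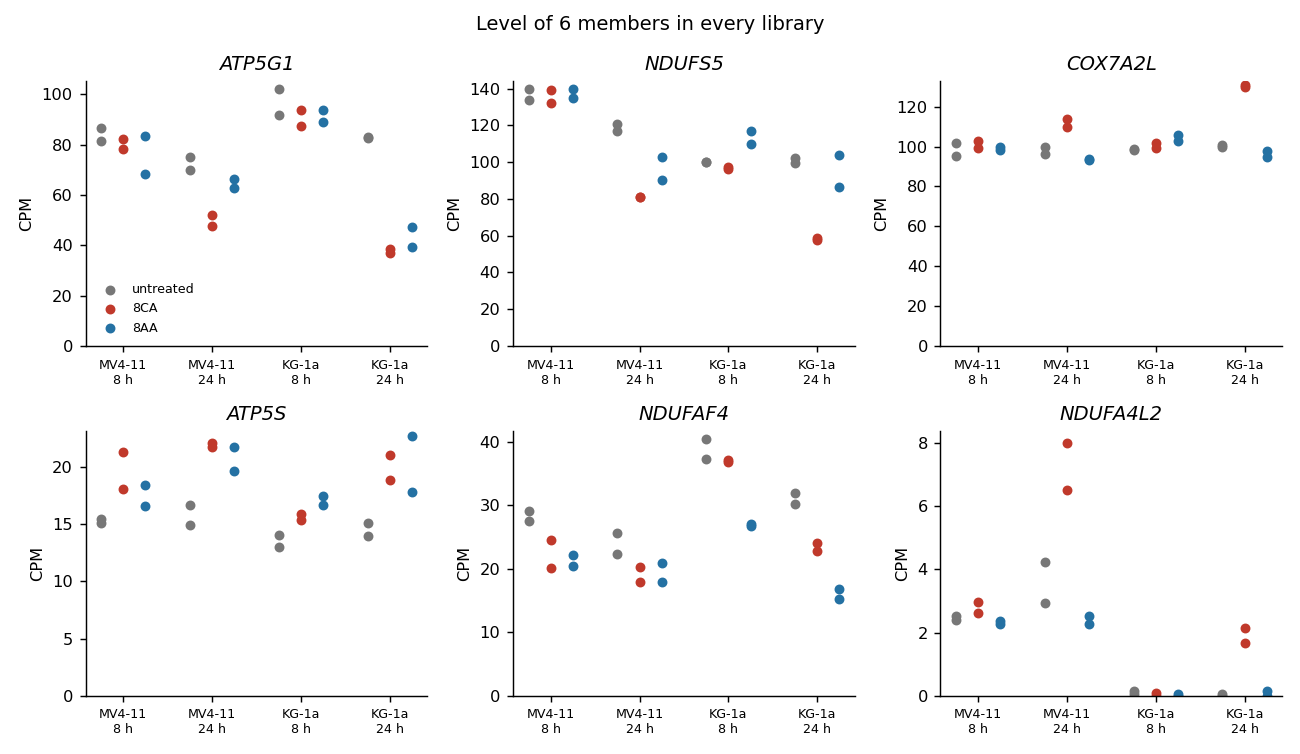
CPM of 6 members (vertical axes, from 0) in every library, by line and time (horizontal axis), with untreated in grey, 8CA in red and 8AA in blue. ATP5G1 falls with both analogs in KG-1a at 24 h, NDUFS5 there with 8CA only, COX7A2L and NDUFA4L2 are highest with 8CA at 24 h in both lines, ATP5S is higher in all treated groups at 24 h, and NDUFAF4 is lowest with 8AA in KG-1a.

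Only ATP5S was higher in all 4 comparisons at 24 h; it is named here because of that value. The gene (now DMAC2L) encodes a factor known to couple the ATP synthase to the proton flow. It held 16.7 and 14.9 CPM in untreated MV4-11, 22.1 and 21.8 with 8CA and 21.8 and 19.7 with 8AA, and in KG-1a 15.1 and 14, 18.9 and 21.1, and 17.8 and 22.7. No treated library overlapped the untreated ones, with fold changes of 0.47, 0.40, 0.45 and 0.47. All 4 calls held under every alternative except 2 for 8AA in MV4-11 (adjusted p up to 0.0933). ATP5S was also higher at 8 h with 8CA in MV4-11 (0.37, edgeR adjusted p = 0.0271) and with 8AA in KG-1a (0.33, adjusted p = 0.0305), calls lost under 4 and 5 of 11 alternatives.

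Of the 8 assembly factors of complex I, 5 were lower at 24 h with 8CA in each line (22.7% of all genes in MV4-11 and 24.0% in KG-1a). With 8AA 4 were lower in each (15.3% and 26.6% of all genes), and 0 were higher in MV4-11 and 1 in KG-1a. NDUFAF4, which acts early in assembly, was already lower at 8 h with 8AA in MV4-11 (-0.41, edgeR adjusted p = 0.00742, lost under 2 of 11 alternatives) and in KG-1a (-0.53, adjusted p = 2.98e-05). In KG-1a at 24 h it held 30.2 and 31.9 CPM untreated, 22.8 and 24.0 after 8CA and 15.3 and 16.8 after 8AA (-0.41 and -0.96), and 8AA gave the lower level, by -0.55 (adjusted p = 4.66e-05). In MV4-11 its calls at 24 h (-0.32 and -0.30) were lost under 3 and 6 of 11 alternatives. NDUFAF7, which methylates a core subunit of complex I, went the other way in KG-1a, higher at 0.22 with 8CA and 0.30 with 8AA, and was lower with 8AA in MV4-11 (-0.24). The first and last of these calls were lost under 4 and 5 of 11 alternatives.

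The lines differed in a few members. Setting the change in MV4-11 against that in KG-1a, 1 member was lower and 4 higher for 8CA (5.44% and 5.76% of all 14055 genes tested) and 2 lower and 13 higher for 8AA (8.51% and 13.8% of all genes). ATP5G1 differed most among the subunits called (ATP5E, at few counts, read 1.95 and 2.08 and was not called), by 0.61 for 8CA (edgeR adjusted p = 0.00159) and 0.79 for 8AA (adjusted p = 3.48e-05), the decrease being larger in KG-1a, and both calls held under all 15 alternatives. NDUFC1 differed by 0.55 for 8CA, and NDUFAF4 by 0.68 and NDUFAF7 by -0.52 for 8AA, each also held under all 15. The calls for NDUFS6 (0.33 for 8CA and 0.31 for 8AA), ATP5G3 (0.23 for 8AA) and UQCRC2 (0.21 for 8AA) were lost under 8 to 12 of 15. Leaving out KG-1a 8AA library A raised the number for 8AA from 15 to 26, and leaving out any untreated library at 24 h brought it to 7 or 8. For 8CA the 5 became 3 or 4 without any one library, and 11 with the replicate block.

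The subunit genes are short and highly expressed, and other genes with both features together were also lower more often than the rest. The median exon length of tested subunits was 1.14 kb in MV4-11 and 1.16 kb in KG-1a, against 3.47 and 3.49 kb for all other genes, and 46.7% and 45.9% of subunits were under 1 kb against 5.59% and 5.53%. With 8CA, 94.3% of the subunits under 1 kb were lower in MV4-11 and 88.2% in KG-1a, against 60% and 67.5% of the longer ones. With 8AA the split was 57.1% against 45% in MV4-11, and it went the other way in KG-1a, at 50% against 55%. Among other genes under 1 kb whose level was above that of the median gene, 60.7% were lower in MV4-11 (median -0.25) and 59.6% in KG-1a (median -0.30), and among subunits in the same bracket 96.8% and 96.2% (medians -0.37 and -0.41). With 8AA the shares in this bracket were 31.6% and 45.2% of other genes and 58.1% and 57.7% of subunits. The part that length plays in the subunits' change was not tested.

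**Figure D5:**
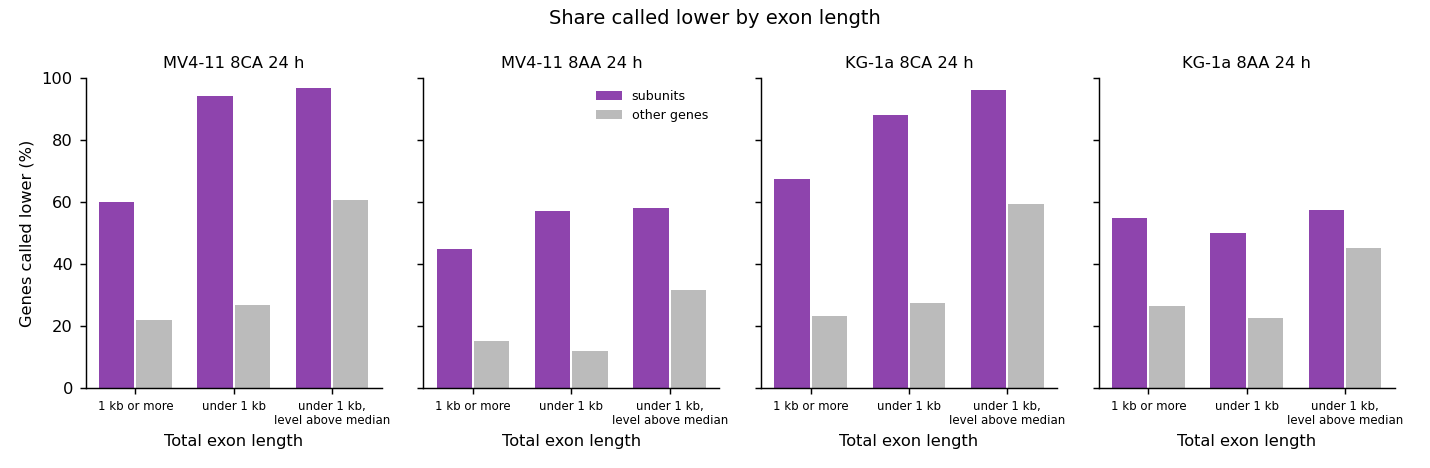
Percent of genes called lower at 24 h (bars from 0, vertical axis) among subunits (purple) and all other tested genes (grey), by total exon length and, in the third pair of bars, also a level above the median gene (horizontal axis). Subunits exceed other genes in all 3 brackets of each comparison, and other short genes with high levels are lower far more often than other genes at large, reaching 60.7% with 8CA in MV4-11.

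Lists of genes around the chain were counted at 24 h, where 22.7% (8CA) and 15.3% (8AA) of all genes were lower in MV4-11 and 24.0% and 26.6% in KG-1a. Of 13 TCA cycle enzymes, MV4-11 had 9 lower after 8CA and 5 after 8AA, KG-1a had 10 lower after either, and none was higher. Of the 36 tested genes for cytochrome c, cytochrome c1 and assembly factors of complexes I to V outside the members, MV4-11 had 11 lower after 8CA and 5 after 8AA (3 higher after each), and KG-1a had 16 and 20 (4 higher after each). The 5 of 36 with 8AA in MV4-11 did not exceed the share of all genes (15.3%). Of 13 tested regulators of mitochondrial transcription and biogenesis (TFAM, NRF1, GABPA and others), 4 and 4 were lower in MV4-11 (30.8% for either) and 3 and 6 in KG-1a (23.1% and 46.2%), and those higher numbered 2 and 0 in MV4-11 against 0 and 2 in KG-1a. The share for 8CA in KG-1a was near that of all genes. The genes of the mitochondrial ribosome, which translates the mitochondrial subunits, were lower in 47 and 35 of 76 in MV4-11 and 48 and 53 of 76 in KG-1a. Cytosolic ribosomal protein genes, which are also short and abundant, were lower in 10 and 6 of 88 in MV4-11 and 11 and 22 of 88 in KG-1a, with 29 higher with 8CA in KG-1a and medians between -0.05 and 0.10.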

How the data were processed

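RNA-seq counts per gene were deposited by the authors as whole-number read counts for 24 libraries of 2 AML lines, not normalized. The submitters' processing notes name Trimmomatic, STAR 2.6.0, HTSeq 0.11.1 and edgeR, and the builds hg19 and hg38. Of 21956 genes matched by symbol, 689 lay within 1000 bases of their GRCh38.p14 ends, so no coordinates of the table are printed. Counts were analysed per line (12 libraries, 1 coefficient per group) with edgeR 4.0.16 in R 4.3.3: filterByExpr (minimum count 10), TMM scaling, quasi-likelihood test, Benjamini-Hochberg adjustment over all genes tested. The comparison of lines used all 24 libraries. CPM are TMM-scaled, and exon lengths are those of the table. The code was tested on simulated counts. Alternatives included DESeq2 1.42.0, other scalings and filters, a replicate block and leaving out each library. Named members were chosen by rule: all SDH genes, the 2 lowest and 2 highest mean changes per complex, the largest or opposite differences between analogs or lines, and the COX isoforms. A withheld item is not reported here. Members and lists were chosen with earlier results of these data known. Of the 95 members, 94 matched a current RefSeq symbol (20 renamed). Reads of UQCRH and its copy UQCRHL may be shared, as may those of ATP5E and its pseudogene. The same may hold for NDUFC2 and ATP5J2 with the joined genes NDUFC2-KCTD14 and ATP5J2-PTCD1, which held 0 or 1 count in a library. The strand setting of the counting is not given in the sources used here. Same-lettered libraries deviated together in MV4-11 at 8 h (every correlation above 0.1) but not in the other 3 sets of line and time, so the blocked counts are given beside the results they change. The counting interval covers counting error only.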

Additional observations from a re-analysis of the deposited data

Results flagged for a closer look

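The change against untreated cells at 24 h differed between the lines, by a test of the difference itself, in 5 members for 8CA and in 15 for 8AA. Of all 14055 genes tested, 5.44% were lower and 5.76% higher for 8CA, and 8.51% and 13.8% for 8AA. Given as MV4-11 minus KG-1a on the log2 scale, the differences for 8CA were 0.61 for ATP5G1, 0.55 for NDUFC1, 0.33 for NDUFS6 and -4.85 for NDUFA4L2, the last resting on 1 count in the untreated KG-1a libraries and so depending on the prior count. For 8AA they were 0.79 for ATP5G1, 0.68 for NDUFAF4, -0.52 for NDUFAF7, 0.31 for NDUFS6, 0.23 for ATP5G3 and 0.21 for UQCRC2. The change at 24 h differed from that at 8 h in 52 members for 8CA and 4 for 8AA in MV4-11, and in 44 and 32 in KG-1a. Of all genes in MV4-11, 9.83% were lower and 6.48% higher for 8CA, and 2.12% and 2.51% for 8AA. In KG-1a the shares were 12.7% and 11.2% for 8CA, and 10.7% and 7.64% for 8AA. Groups of 2 libraries were too small for a test of single libraries against their group.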

How the results depend on the processing

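Of 310 recomputed counts of called members, 231 stayed within 1.5 times the reported one. Of 5008 recomputed values of named members, 4331 kept their direction and side of the threshold, 317 changed sign without a call, 220 lost a call, 139 gained one and 1 turned: ATP5G2 with 8AA in KG-1a at 24 h, at -0.21 without 8AA library A (-0.21 to 0.20 over the left-out libraries). A library left alone in its group was assumed to vary like the others. The shares of all genes called under these alternatives are not given beside the counts of members. Leaving out one library gave, for members lower at 24 h with 8AA in MV4-11, 18 to 37 (43 reported), and for members higher 0 to 1 there and 2 to 6 in KG-1a. At 8 h it gave 0 to 1 lower and 0 to 1 higher for 8CA in MV4-11, 1 to 3 lower and 0 to 6 higher for 8AA in MV4-11, and 2 to 6 higher for 8AA in KG-1a. Between analogs it gave 5 to 30 in MV4-11 and 21 to 55 in KG-1a at 24 h, and 4 to 9 in KG-1a at 8 h. Between times it gave 26 to 49 (8CA) and 0 to 8 (8AA) in MV4-11 and 19 to 61 for 8AA in KG-1a, and between lines 3 to 4 for 8CA and 7 to 26 for 8AA.

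With DESeq2 size factors 1 member was lower with 8CA in MV4-11 at 8 h. With no filter on low counts 2 were, 3 were higher with 8AA there, 1 differed between the analogs there, 13 differed between times with 8AA in MV4-11, and 9 between lines with 8CA. With library size only, 1 was lower and 7 higher with 8AA in MV4-11 at 8 h, 19 higher with 8AA in KG-1a at 8 h, 50 differed between the analogs in KG-1a at 24 h and 7 between times with 8AA in MV4-11. That scaling moved the median of all genes for 8AA in KG-1a at 24 h to 0.11 and the members' median to -0.09, and left 31 members lower there and 29 in MV4-11. With upper-quartile scaling 1 was lower and 6 higher with 8AA in MV4-11 at 8 h. With the DESeq2 Wald test 2 were higher with 8CA in KG-1a at 24 h, 0 for 8CA in MV4-11 at 8 h, and at the same time 6 for 8AA in KG-1a. The causes were not tested.

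With a replicate block, MV4-11 at 8 h had 3 members lower and 3 higher for 8CA, and for 8AA it had 8 and 7, where every pair of same-lettered libraries correlated above 0.1 (0.241 to 0.329) in its deviations. With the block 2 were higher with 8AA in MV4-11 at 24 h, 46 differed between the analogs there and 1 at 8 h, 28 between times with 8AA in MV4-11, and 11 between lines with 8CA. The correlations ran from 0.0242 to 0.113 in KG-1a at 8 h, from -0.0118 to 0.183 in MV4-11 at 24 h and from -0.163 to 0.161 in KG-1a at 24 h, where the libraries were taken to share only a letter. Totals of 18633963 to 24520078 counts leave ATP5E, NDUFA11, NDUFB8 and NDUFA4L2 in KG-1a poorly measured.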
